A study of Mus musculus with 4 samples.

Results

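The keratin gene family was described across 4 one-colour Agilent arrays of mouse periodontal ligament. Members were all genes whose symbol is Krt followed by a number and at most 1 letter, named through the RefSeq accession of their probe, which gave 54 genes of 22911 named on the array. Where several probes stood for a gene, which was so for 7 keratins, the probe with the highest mean signal was used. The labels call the tissue PDL, which stands for periodontal ligament, a connective tissue that holds the tooth root in its socket. It came from wild type mice (WT) and from mice knocked out for Mkx (Mkx-KO, the knockout), the gene of the tendon and ligament transcription factor Mohawk. Both genotypes were taken at 10-week-old and 4-week-old age, with 1 array for each of the 4 groups. The strain, the allele, the sex and the number of mice behind an array are not given in the sources used here. With 1 array per group there were no biological replicates, so each difference describes a pair of preparations, and the number of arrays limits the precision.

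Keratins are the intermediate filament proteins of epithelial cells. A type I and a type II keratin pair to build each filament, and filaments anchor to desmosomes between cells and to hemidesmosomes at the basement membrane. Each epithelium uses its own pairs: Krt5 with Krt14 in the basal layer of stratified epithelia, Krt4 with Krt13 in the upper layers of soft oral mucosa, Krt1 with Krt10 in cornifying epithelia, and Krt8 with Krt18 in single-layered and glandular epithelia. A ligament is mostly fibroblasts and matrix. The epithelium nearest to it is the gingiva with its junctional epithelium at the tooth neck, and epithelial cell rests lie within the ligament. In RNA from whole tissue, fewer cells of a type and less RNA per cell cannot be told apart.

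Values are processed signals, the background-subtracted brightness of a spot on a linear scale, or log2 differences between signals after the 75th percentile of each array was set to 0. That percentile was a signal of 309.0 (WT) and 259.4 (Mkx-KO) at 10 weeks and of 266.7 (WT) and 286.7 (Mkx-KO) at 4 weeks. The technical error of a difference, from the error estimates of the scanner software, had a median of 0.20 log2 units over the keratins in each comparison. It does not cover variation between mice. All 12 ligament and fibroblast genes were well above background on all arrays, with genotype differences from -0.28 to 0.71 at 10 weeks and from -0.35 to 0.43 at 4 weeks. Among them Scx, a tendon and ligament transcription factor, differed by 0.71 and 0.30, Tnmd, the gene of tenomodulin, by -0.28 and -0.19, and Fmod, the gene of fibromodulin, by -0.19 and 0.43. Mkx itself was lower in Mkx-KO, by 2.10 at 10 and 1.65 at 4 weeks. The array of Mkx-KO at 4 weeks stood apart, with far lower values of olfactory and nasal gland genes than the other 3 arrays, as given beside the results it touches.

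Of the 54 keratins, 34 were well above background on all 4 arrays by the call of the scanner software, 3 on some of them and 17 on none. Among all 22911 named genes, 15504 were so on all arrays and 5534 on none. All keratins of the basal layer (3 genes), the upper layers of oral mucosa (5), the wound and skin appendage group (6) and simple epithelium (6) were among the 34. In the upper epidermal group 5 of 6 were, Krt77 being below background throughout. None of the 8 keratins of the inner root sheath of hair was well above background on any array. Of 15 hair and other hard keratins, 5 were well above background on all arrays and 3, Krt35, Krt36 and Krt86, on some. In the group of cornea and other keratins 4 of 5 were measured, the exception being Krt88. Of 53 genes for the keratin-associated proteins of hair (Krtap genes), 21 were well above background on all arrays and 20 on none.

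**Figure D1:**
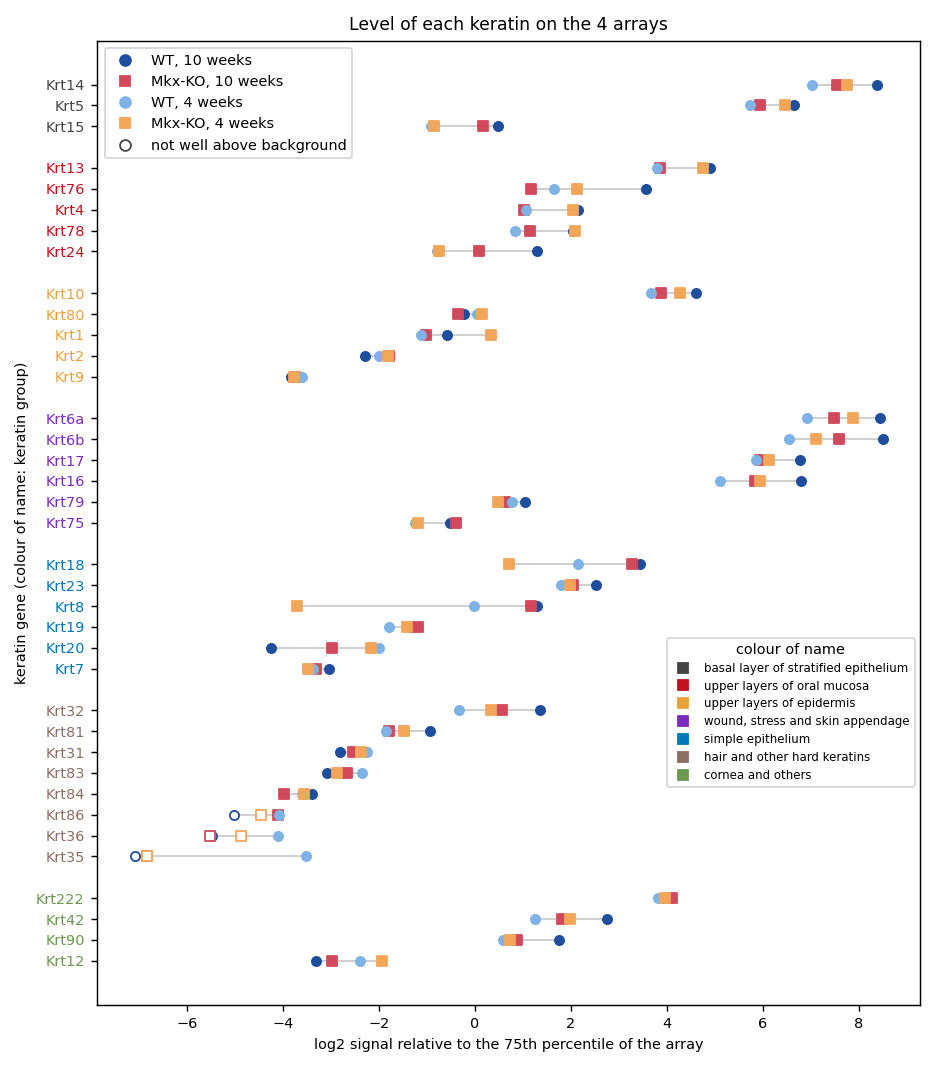
Log2 signal less the 75th percentile of its array (x axis) for the 37 keratins well above background on at least 1 array (y axis), with a circle for each WT and a square for each Mkx-KO array and open symbols for values not well above background. Among the 34 keratins measured on all arrays, WT at 10 weeks was the highest array for 22 and WT at 4 weeks the lowest for 20, and Krt8 has its lowest value in Mkx-KO at 4 weeks. These counts were not made over all genes.

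The arrays were not ranked evenly by the 34 measured keratins. WT at 10 weeks gave the highest level for 22 of them and WT at 4 weeks the lowest for 20. How all genes rank the arrays was not counted. In the WT pair alone, 27 of the 34 keratins were higher at 10 weeks, against 6518 of 16102 named genes measured on both arrays. The order WT at 10 weeks, the knockout at 4 weeks, the knockout at 10 weeks, WT at 4 weeks, from high to low, was the most frequent and held for 9 keratins: Krt5, Krt6a, Krt10, Krt13, Krt14, Krt16, Krt17, Krt42 and Krt81. In 4 dim keratins, Krt9, Krt20, Krt31 and Krt83, the WT arrays had the opposite places, with WT at 4 weeks the highest and WT at 10 weeks the lowest.

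The promoter windows of 4 members that carry the main differences are shown, from 250 bases before to 50 bases after the start of the gene, from RefSeq on GRCm38.p6. Krt8 and Krt18 are the simple-epithelium pair, and Krt76 and Krt13 are oral-mucosa keratins. Capitals mark matches, on either strand, to 3 motifs searched: TATAAA (the core of a TATA box), GGGCGG (a GC box) and TGANTCA (an AP-1 type site). In Krt8 a match on each strand overlaps the other.
Krt8, chr15:102004293-102004592, minus strand: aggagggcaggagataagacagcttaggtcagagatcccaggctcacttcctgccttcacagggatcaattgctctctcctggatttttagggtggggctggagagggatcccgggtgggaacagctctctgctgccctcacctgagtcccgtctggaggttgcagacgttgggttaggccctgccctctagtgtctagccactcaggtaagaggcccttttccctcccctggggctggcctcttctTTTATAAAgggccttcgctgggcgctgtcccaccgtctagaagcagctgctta
Krt18, chr15:102027966-102028265, plus strand: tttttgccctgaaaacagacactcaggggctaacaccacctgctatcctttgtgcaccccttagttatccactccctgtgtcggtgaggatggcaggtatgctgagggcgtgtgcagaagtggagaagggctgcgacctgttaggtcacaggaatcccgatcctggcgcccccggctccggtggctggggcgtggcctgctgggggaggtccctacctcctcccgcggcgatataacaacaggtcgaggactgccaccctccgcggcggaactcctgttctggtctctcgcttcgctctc
Krt76, chr15:101892871-101893170, minus strand: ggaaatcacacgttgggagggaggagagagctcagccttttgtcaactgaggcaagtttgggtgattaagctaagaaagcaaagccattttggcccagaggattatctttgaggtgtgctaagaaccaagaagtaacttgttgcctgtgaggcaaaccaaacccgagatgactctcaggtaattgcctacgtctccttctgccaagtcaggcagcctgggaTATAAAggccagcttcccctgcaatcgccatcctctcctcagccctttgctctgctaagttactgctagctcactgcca
Krt13, the first of its listed starts, chr11:100121517-100121816, minus strand: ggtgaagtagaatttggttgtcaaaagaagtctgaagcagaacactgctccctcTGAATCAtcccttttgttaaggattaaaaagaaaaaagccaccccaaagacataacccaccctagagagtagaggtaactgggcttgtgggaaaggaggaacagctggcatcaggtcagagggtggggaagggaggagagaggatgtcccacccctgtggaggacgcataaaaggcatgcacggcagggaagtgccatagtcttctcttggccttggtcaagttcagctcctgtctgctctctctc

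TATAAA began 29 bases before the start in Krt76 and 1 base before the listed start in Krt8. The window of Krt13 held TGANTCA beginning 196 bases before the start. Krt18 matched none of the 3 motifs in its window. The table held 37 windows for 36 of the 54 keratins. TATAAA was in 19 of the 37, against 13.6% of all 32851 windows in the table. GGGCGG was in 2, those of Krt7 and Krt75, against 35.7% of all windows, and TGANTCA was in 2, both of Krt13, against 7.8%. A match is a description of the letters and does not show that a factor binds.

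At 10 weeks, the older of the 2 ages, keratins of stratified epithelium were lower in the knockout, those of the oral mucosa by the widest margin. All 5 keratins of the upper oral layers differed on the lower side, with a median of -1.12, and 4 of them passed 2-fold. Signals of Krt76, a keratin of the cornifying hard palate and gingiva, were 3652 (WT) and 585 (knockout) at 10 weeks and 845 (WT) and 1267 (knockout) at 4 weeks. WT at 10 weeks was its high array, and the difference between genotypes at that age was -2.39. Among all 16457 genes measured at this age 1.37% were at least 2-fold lower, and among the 34 measured keratins 4 were. By sign, 25 of the 34 keratins were negative, against 7984 of the 16457 genes.

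The other upper-layer oral keratins were closer together. Signals of Krt24 were 757 (WT) and 276 (knockout), a difference of -1.20. Those of Krt4 were 1372 and 529 (-1.12), and those of its partner Krt13 were 9273 and 3776 (-1.04). A second Krt13 probe gave -1.31. Krt78 differed by -0.90, just short of 2-fold.

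The 3 basal keratins and 5 of the 6 wound and skin appendage keratins were on the lower side, with group medians of -0.72 and -0.87. Signals of Krt14, the type I keratin of basal cells, were 103861 (WT) and 48991 (knockout) at 10 weeks and 34652 (WT) and 62407 (knockout) at 4 weeks. WT was the higher genotype at 10 weeks and the lower one at 4 weeks, and the difference at 10 weeks was -0.83. Krt5, its type II partner, gave 31193 (WT) and 15953 (knockout) at 10 weeks (-0.72). Krt15, a type I keratin of basal and stem cell-rich layers, differed by -0.30. The keratins Krt6a, Krt6b, Krt16 and Krt17, which are present in oral epithelium and are induced in wounded skin, differed by -0.96, -0.91, -0.94 and -0.83. Krt6a signals were 107147 (WT) and 46348 (knockout). Krt79 and Krt75, the other members of that group, differed by -0.41 and 0.11. None of these 9 genes reached 2-fold. Krt6a and Krt6b are nearly identical, as are parts of Krt14, Krt16, Krt17 and Krt42, so a probe may read more than its own gene. Krt42, which lies beside Krt17, differed by -0.93.

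Keratins of other groups were more mixed. In the epidermal group, Krt10 was lower (-0.72) but Krt1 differed by -0.43, Krt80 by -0.12, Krt9 by 0.09 and Krt2 by 0.50. A second Krt80 probe gave -0.83, and 0.75 at 4 weeks against 0.10. Simple-epithelium keratins were spread around a median of -0.14. Krt8 differed by -0.11 and Krt18 by -0.18, both within their technical error of 0.20. Krt20, a keratin of gut lining and Merkel cells, was the 1 keratin at least 2-fold higher, against 1.04% of all genes. Its signals were 16.2 (WT) and 32.9 (knockout), close to background, and its difference of 1.27 was 0.50 with normexp background correction. Hair keratins had a median of -0.58 from Krt81 (-0.84) to Krt83 (0.44), and this median was 0.04 with normexp background correction, -0.35 with the mean over probes and -0.16 where 1 array above background was enough. Krt32 differed by -0.78, but its second, dimmer probe by 0.08, and at 4 weeks the 2 probes gave 0.66 and 0.10. Krt222 differed by 0.20, Krt12 of the cornea by 0.34 and Krt90 by -0.88.

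At 4 weeks the stratified keratins lay on the other side of 0. By sign, 26 of the 34 keratins were positive, against 9229 of 15686 genes. The oral group had a median of 0.97 with all 5 members positive. Signals of Krt78, a type II keratin, were 479 (WT) and 1220.3 (knockout), a difference of 1.25. Signals of Krt1, the type II keratin of cornifying layers, were 123 (WT) and 360.0 (knockout), a difference of 1.45, and it was 1.08 with normexp background correction. These were the 2 keratins at least 2-fold higher among 34, against 0.472% of 15686 genes.

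Several keratins came just short of 2-fold at 4 weeks. Krt4 gave 555 (WT) and 1183 (knockout), a difference of 0.99. Krt13 gave 3677 and 7730.0 (0.97), and Krt6a gave 32194 and 67682 (0.97). Krt14 and Krt5 both differed by 0.74 and Krt16 by 0.83. Smaller differences were those of Krt10 (0.59), Krt6b (0.57), Krt76 (0.48) and Krt17 (0.27), and Krt24 (0.03) and Krt15 (0.06) were within their technical error.

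Krt8 and Krt18 were lower instead. Signals of Krt8 were 758 (WT) and 589 (knockout) at 10 weeks and 263 (WT) and 21.9 (knockout) at 4 weeks. The knockout at 4 weeks was thus its low array, with a difference of -3.69 from WT of the same age. Since 21.9 is near background, the size depends on the background correction, and normexp gave -1.93. Signals of Krt18 were 3375 (WT) and 2504.0 (knockout) at 10 weeks and 1191 (WT) and 467 (knockout) at 4 weeks, and its difference at 4 weeks was -1.45. These 2 of 34 keratins were at least 2-fold lower at 4 weeks, against 3.31% of all genes.

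The other simple-epithelium keratins did not follow Krt8 and Krt18. Krt19, a type I keratin of ducts and basal odontogenic epithelium, differed by 0.39 at 4 weeks and Krt23 by 0.18. Krt7 (-0.11) and Krt20 (-0.17) were within their technical errors. The group median of -0.14 thus describes neither set.

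On the same array the lists of other tissues were low as well. Of 8 olfactory sensory neuron genes, 4 were well above background on both arrays of 4 weeks, with a median of -4.97 and 3 of them at least 2-fold lower. Of 8 genes of olfactory supporting cells and nasal glands 5 were, with a median of -6.82 and all 5 at least 2-fold lower. Salivary gland genes had a median of -0.85 over 5 of 8 genes, and ciliated airway genes of -0.62 over 3 of 8. These medians leave out genes well above background in WT at 4 weeks but not in the knockout. Levels of such ciliated genes in WT and the knockout were 2.26 and -6.71 (Sec14l3), -1.84 and -6.98 (Tekt1), and -3.84 and -5.71 (Tmem212). Those of salivary genes were -0.82 and -6.29 (Dcpp2) and -0.9 and -5.05 (Bpifa2). Levels of Omp, the olfactory marker, were 5.16, 4.85 and 4.87 on the other arrays and -3.26 in the knockout at 4 weeks. In the epithelial surface list 8 of 10 genes were positive at 4 weeks, against 9229 of 15686 named genes. Epcam was 1 of the 2 negative ones, with differences of -0.45 at 4 weeks and -0.47 at 10 weeks. The part of these tissues in the Krt8 and Krt18 differences was not tested. At 10 weeks the olfactory neuron list had a median of -0.18 with all 8 genes measured and none past 2-fold. In the nasal gland list 2 genes were at least 2-fold lower and 1 higher at that age, and in the salivary list 1 was lower.

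**Figure D2:**
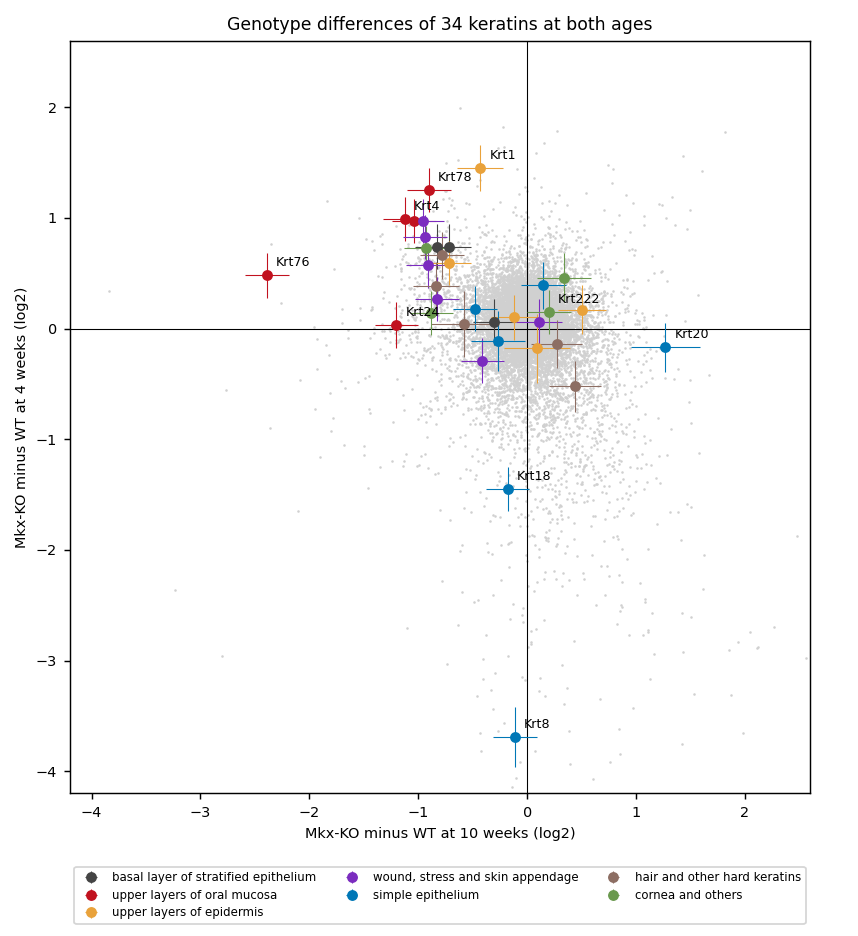
Log2 difference knockout minus WT at 10 weeks (x axis) and at 4 weeks (y axis) for the 34 keratins measured on all arrays (coloured by group, bars show the technical error of the scanner software) over the 15504 genes measured on all arrays (grey, of which 33 lie outside the axes). Most stratified keratins sit at the upper left, lower at 10 and higher at 4 weeks, while Krt8 and Krt18 lie far below 0 at 4 weeks and Krt76 far left.

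Both genotype comparisons rest on different arrays and were set side by side. Of the 34 keratins, 21 were lower in the knockout at 10 weeks and higher at 4 weeks by sign. How many of all genes had this pattern by sign alone was not counted. For 15 keratins both differences exceeded their technical errors, and 5.25% of 15504 genes measured on all arrays had this pattern. For 13 both exceeded 2 technical errors, against 1.43% of these genes. The 15 were Krt1, Krt4, Krt5, Krt6a, Krt6b, Krt10, Krt13, Krt14, Krt16, Krt17, Krt32, Krt42, Krt76, Krt78 and Krt81. Of these, Krt32 did not show it by its second probe. Krt6a with Krt6b, and Krt14 with Krt16, Krt17 and Krt42, may be read by each other's probes. The opposite order, higher at 10 and lower at 4 weeks, was seen by sign in 4 (Krt9, Krt20, Krt31 and Krt83). Krt7, Krt8, Krt18 and Krt79 were on the lower side at both ages, and Krt2, Krt12, Krt19, Krt75 and Krt222 on the higher side at both. The genotype difference at 10 weeks minus that at 4 weeks had a median of -0.84 over the 34 keratins, without a test. It was widest on the negative side for Krt76 (-2.87), then Krt78 (-2.15), Krt4 (-2.11) and Krt13 (-2.01), and widest on the positive side for Krt8 (3.58).

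**Figure D3:**
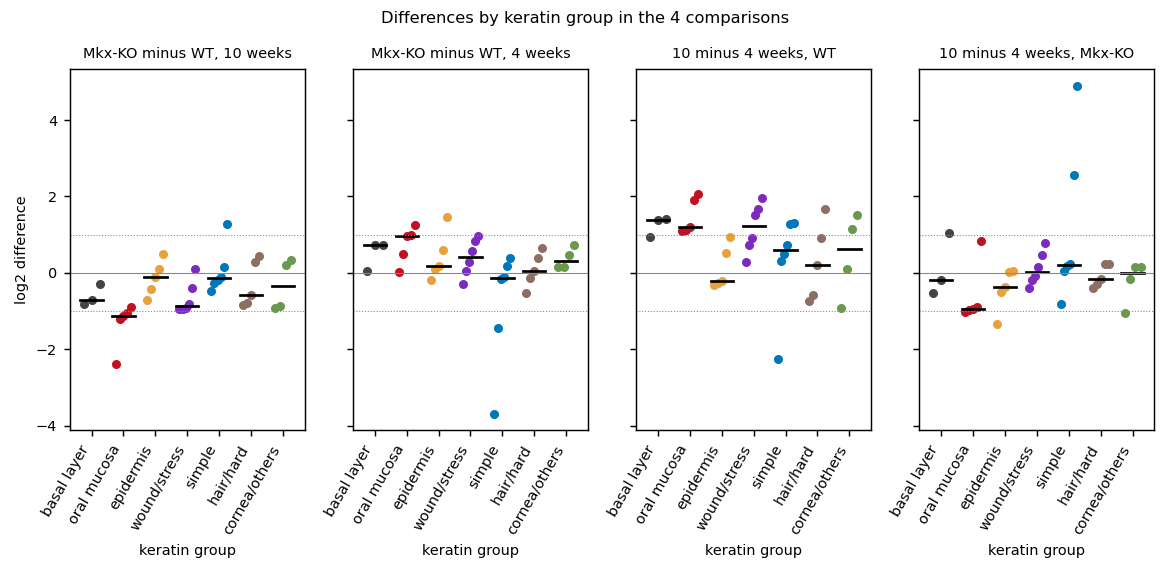
Log2 difference (y axis) of each measured keratin by keratin group (x axis) in the 4 comparisons, with a bar at the group median and dotted lines at 2-fold. The oral group lies near -1 at 10 weeks, near 1 at 4 weeks and above 1 for age in WT, and in the simple-epithelium group Krt8 and Krt18 lie apart from the other members at 4 weeks and for age in the knockout.

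Age was compared within WT as 10 minus 4 weeks. This comparison shares an array with each genotype comparison, so it is not separate evidence. Of 34 keratins, 15 were at least 2-fold higher at 10 weeks, against 5.01% of 16102 genes, and 1 was at least 2-fold lower, against 3.83%. All 5 oral keratins passed 2-fold: Krt24 differed by 2.07, Krt76 by 1.90, Krt78 by 1.21, Krt13 by 1.12 and Krt4 by 1.09. Krt6b signals were 25071 at 4 weeks and 112682 at 10 weeks (1.96), and Krt16 signals were 9242 and 34357 (1.68). Krt6a (1.52), Krt15 (1.40), Krt14 (1.37), Krt8 (1.31) and Krt18 (1.29) were also at least 2-fold higher, as were Krt32 (1.67), Krt42 (1.51) and Krt90 (1.16), so the simple pair was on the same side as the stratified keratins here. The second Krt32 probe, above background on all arrays, gave 0.39. Krt5 (0.93) and Krt17 (0.91) did not reach 2-fold.

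Of the 7 keratins on the lower side for age in WT, Krt80 (-0.27) had signals of 275.0 at 4 weeks and 265.1 at 10 weeks, and the other 6 were dimmer. A second Krt80 probe, above background on all arrays, lay on the higher side (0.71). Krt20 signals were 66.9 at 4 weeks and 16.2 at 10 weeks, a difference of -2.26 that was -0.92 with normexp background correction. Krt12 differed by -0.92, Krt83 by -0.73, Krt31 by -0.57, Krt2 by -0.31 and Krt9 by -0.22, the last 2 being 0.04 and 0.13 in the deposited values. Krt35, a hair shaft keratin, gave 23.1 in WT at 4 weeks and between 2.3 and 2.5 on the other arrays. It was well above background in WT at 4 weeks only, and so at least 2.58-fold lower in WT at 10 weeks and at least 2.21-fold lower in the knockout at 4 weeks. Krt36 was also well above background only there, with bounds of 1.72-fold and 1.48-fold, and Krt86 had bounds between 1.27-fold and 1.75-fold. Of the Krtap genes 30 were well above background in WT at 4 weeks, against 24, 24 and 23 on the other arrays.

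Like that in WT, the age comparison in the knockout shares an array with each genotype comparison and is not separate evidence. It looked different in the knockout. There, 3 keratins, Krt8 (4.90), Krt18 (2.57) and Krt15 (1.03), were at least 2-fold higher at 10 weeks, against 6.25% of 15669 genes. Another 3, Krt1 (-1.35), Krt12 (-1.04) and Krt4 (-1.02), were at least 2-fold lower, against 3.84%. Krt8 was 2.98 with normexp background correction, Krt15 0.85, Krt12 -0.40 and Krt4 -0.91, and Krt4 was -0.73 in the deposited values. Among the oral keratins Krt76 differed by -0.97, Krt78 by -0.94 and Krt13 by -0.89, while Krt24 differed by 0.84. Krt75, a companion layer keratin of hair, differed by 0.78. A second, dimmer Krt75 probe that was well above background on 2 arrays gave 2.62, and at 4 weeks -0.91 between genotypes against 0.06. The small differences of Krt14 (-0.20), Krt17 (-0.18) and Krt16 (-0.09) turned positive in the deposited values, to 0.09, 0.11 and 0.20.

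The median of all measured keratins summed up the 4 comparisons as -0.53 and 0.22 for genotype at 10 and 4 weeks, and 0.93 and -0.12 for age in WT and the knockout. Over all named genes these medians were 0.01, 0.06, -0.10 and -0.15. Type I and type II keratins gave like medians, with -0.48 and -0.58 for genotype at 10 weeks and 0.27 and 0.17 at 4 weeks. The deposited values, which carry 1 further factor per array, put the median of all genes 0.36 higher for age in WT and 0.29 higher for age in the knockout, and the age differences of keratins moved with it.

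Partners of a filament were compared within each comparison, as the difference of the type II gene minus that of the type I gene. For Krt4 and Krt13 this gap was -0.08 and 0.02 for genotype at 10 and 4 weeks, and for Krt5 and Krt14 it was 0.12 and -0.01. Krt6a and Krt16 were also close, at -0.01 and 0.14. These gaps lay within their technical error of 0.29. Krt6b and Krt17 gave -0.08 and 0.30. Krt1 and Krt10 parted by 0.85 at 4 weeks, Krt1 being the further apart between genotypes. For age in WT and in the knockout, gaps were 1.04 and 0.66 for Krt6b and Krt17. They were -0.44 and -0.32 for Krt5 and Krt14, and -0.40 and -0.97 for Krt1 and Krt10. For Krt6a and Krt16 they were -0.16 and -0.31, and for Krt4 and Krt13 -0.03 and -0.13. Krt8 and Krt18 kept together at 10 weeks (0.07) and for age in WT (0.02). They parted by -2.24 at 4 weeks and by 2.33 for age in the knockout, gaps that take in the dim Krt8 signal in the knockout at 4 weeks.

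To set out which keratins differed from the basal layer, the mean difference of Krt5 and Krt14 was subtracted, -0.77 at 10 weeks and 0.74 at 4 weeks. Of the other 32 keratins, 18 were then within 0.5 of the basal keratins at 10 weeks and 13 at 4 weeks. Krt76 was the 1 keratin lower by at least 2-fold relative to them at 10 weeks, at -1.62. Krt20 (2.05), Krt2 (1.28), Krt83 (1.21), Krt12 (1.12) and Krt31 (1.04) were at least 2-fold above them, with no signal of these 5 above 81.6. At 4 weeks Krt8 (-4.43), Krt18 (-2.20), Krt83 (-1.26) and Krt79 (-1.04) were at least 2-fold below them and none was above.

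**Figure D4:**
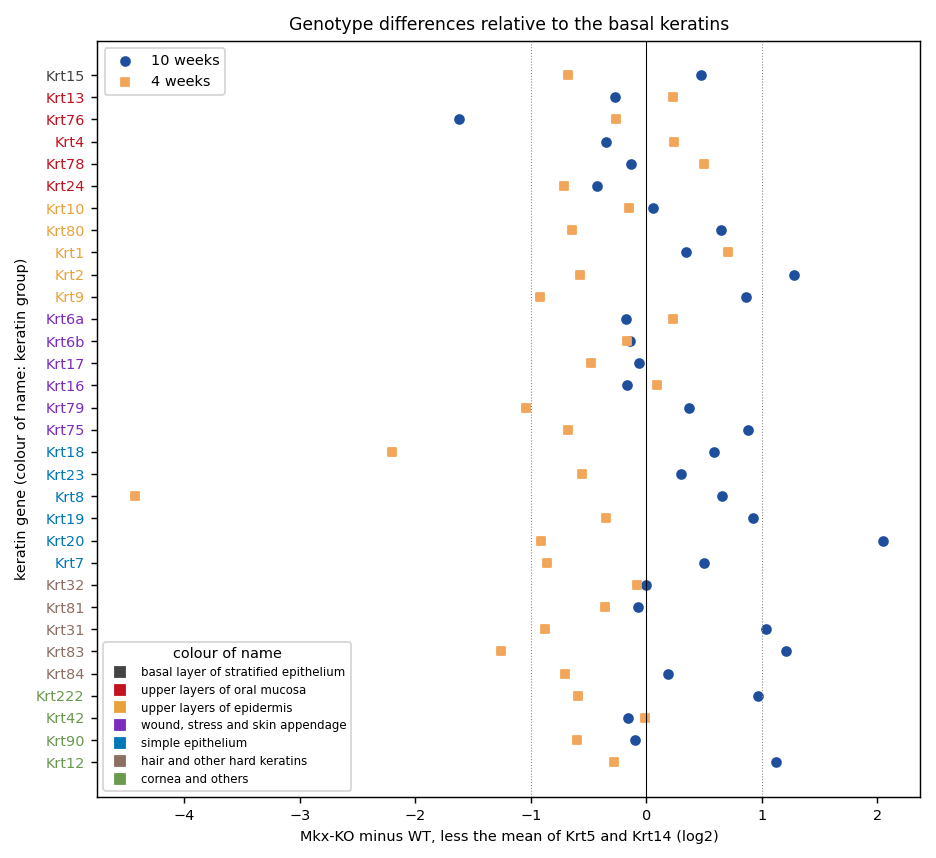
Log2 difference knockout minus WT less the mean difference of Krt5 and Krt14 (x axis) for 32 keratins (y axis), circles for 10 weeks and squares for 4 weeks, with dotted lines at 2-fold. Krt76 is the circle at -1.62, and Krt8 and Krt18 are the squares at -4.43 and -2.20.

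By the order of genes in RefSeq, 27 of the keratins lie on chromosome 11, all of type I, and 27 on chromosome 15. The latter are 26 of type II and Krt18, which is next in the order of keratins to its partner Krt8. Of the 17 keratins below background on all arrays, 13 lay in 3 runs: Krt25 to Krt28 (4 in a row) and Krt39, Krt40, Krt33a, Krt33b and Krt34 (5) on chromosome 11, and Krt71 to Krt74 (4) on chromosome 15. Each run lies between keratins that were measured. Krt87 and Krt88 were a pair, and Krt77 and Krt82 stood alone. Krt6b, Krt6a and Krt5 follow each other on chromosome 15, and Krt14, Krt16, Krt17 and Krt42 on chromosome 11. All 7 were lower at 10 and higher at 4 weeks. Except for Krt5, these are the near-identical genes whose probes may read each other, so they may not be 7 separate readings. Krt76, Krt4, Krt79 and Krt78 are also next to each other, but Krt79, a keratin of sebaceous ducts, differed by -0.41 and -0.29 at 10 and 4 weeks, unlike its neighbours.

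The 5 lists of other epithelial genes had negative medians at 10 weeks. Of all 16457 named genes measured at this age, 7984 were negative. Desmosome and keratin linker genes, which anchor the filaments, had a median of -0.63, and all 14 were negative. Cornified envelope genes had a median of -0.90 with 13 of 13 measured genes negative, among them Lor (-0.95) and Sprr3 (-0.97), which encode loricrin and a small proline-rich protein. Epithelial surface and adhesion genes had a median of -0.53 with 10 of 10 negative, epithelial regulators -0.54 with 12 of 13, and hemidesmosome and basement membrane genes -0.52 with 7 of 8. No desmosome or surface gene was at least 2-fold lower, and 1 gene was in each of the other 3 lists, among them Lama3, a laminin chain gene of epithelial basement membrane (-1.05). The named desmosome genes Pkp1, Dsg3 and Dsc1 differed by -0.95, -0.78 and -0.63.

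At 4 weeks these lists lay above 0 by less. Of all 15686 named genes measured at this age, 9229 were positive. Cornified envelope genes had a median of 0.53 with 12 of 13 positive, and desmosome genes one of 0.37 with 12 of 14 positive. Surface genes had a median of 0.26, regulators 0.25 and hemidesmosome genes 0.23, and no gene of these 5 lists reached 2-fold higher. For age in WT the medians were 1.35 for regulators, 1.08 for desmosome, 0.87 for surface, 0.75 for hemidesmosome and 0.63 for cornified envelope genes. In the knockout they were 0.32, 0.17, -0.02, -0.13 and -0.55 in the same order. Ovol1, Ehf and Zfp750, regulators of epithelial differentiation, differed by 2.05, 1.74 and 1.73 for age in WT.

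The olfactory and nasal gland lists had medians of -4.97 and -6.82 at 4 weeks, as given above beside Krt8. Odam, made by the junctional epithelium at the tooth neck, differed by -1.33 at 10 weeks and 0.85 at 4 weeks, the direction of the oral keratins. Its list, with the enamel genes, was mixed, with medians of -0.40 and 0.21. At 10 weeks 4 of 6 measured genes were negative, while Amtn (0.13) and Klk4 (0.23) were positive. At 4 weeks 5 of 6 measured genes were positive, among them Mmp20 (0.24), and 1 was negative. This count and the median of 0.21 leave out Enam, which was well above background in WT but not in the knockout. Levels of Enam at 4 weeks were -0.49 in WT and -5.1 in the knockout. Amelx, the amelogenin gene in that list, differed by -6.66 at 4 weeks. Hair follicle genes other than keratins had medians of -0.12 and 0.12 over 5 measured genes. The other intermediate filament genes had medians of 0.19 and -0.06, and among them the neurofilament genes Nefl, Nefm and Nefh were far lower on the array of the knockout at 4 weeks, Nefl by -3.27, and Nefm and Nefh were not well above background there. Ligament and fibroblast genes had medians of 0.01 and -0.02. At 10 weeks the medians were 0.14 for ciliated airway, -0.27 for nasal gland and -0.08 for salivary gland genes. The part of the amount of epithelium in a preparation in the keratin differences was not tested.

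A fit of genotype and age over the 4 arrays with limma, whose 1 residual degree of freedom is the interaction of both, made no call. Its genotype term averages both ages, so differences of opposite sign cancel in it and enter the residual. The genotype effects of Krt14 and Krt6a were -0.04 and 0.01. The fit could thus not call the change of side between the ages. None of 35 keratins passed an adjusted p of 0.05 for genotype (0 at an unadjusted p under 0.05) or for age (6 at an unadjusted p under 0.05). The smallest adjusted p of a keratin for age was 0.176, for Krt12, Krt15 and Krt75 alike, with age effects of -0.98 (SE 0.13), 1.21 (SE 0.17) and 0.76 (SE 0.13). For genotype the smallest was 1. No gene of 16795 passed for either term, while 455 had an unadjusted p under 0.05 for genotype and 4075 for age. With normexp background correction 31 genes and no keratin passed for age. On simulated data of this layout 0 of 50 genes changed by 1 or by 2 log2 units were found for genotype, 34 of 50 changed by 4 and 49 of 50 changed by 8.

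Local brightness on the slide was checked around the spots of the 37 keratins above background. The median deviation of neighbouring spots, within 10 rows and columns, lay between -0.12 and 0.12 log2 units on every array.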

How the data were processed

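RNA from 4 preparations was hybridised to 4 one-colour arrays, 1 per group. Per the labels' protocols, Cy3-labelled cRNA was made from 0.1 ug of total RNA. Per the submitters' processing notes, Agilent Feature Extraction 11.5.1.1 was the scanner software. The deposited scan data give the processed signal intensity, background-subtracted and spatially detrended per array, with its error estimate, and the median intensity of spot and local background. The deposited series table holds the same intensity times 1 factor per array (1.54 to 2.08), chosen in a way that is not given in the sources used here.

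Spots marked as outliers (60 to 77 per array) were left out, log2 values of repeated spots were averaged per probe, and each array was scaled by its own 75th percentile over probes that are not controls. No spot was saturated. Of 56604 probes, 32994 were named through the RefSeq accession, for 22911 genes. The array design is annotated on another build than the gene table, so coordinates are printed for promoter windows only. A difference was read where both arrays were well above background and called at 2-fold. Where 1 array was below, the lowest level well above background there, or the gene's own level where that was higher, gave a bound. Additive effects of genotype and age were fitted with limma 3.58.1 (R 4.3.3) to genes that 2 or more arrays measured above background. Its p-values were adjusted after Benjamini-Hochberg. A run on simulated data of 16795 genes, without an age effect or an interaction, gave 9 false calls. Beside them it gave 34 and 49 true calls, for changes of 4 and 8 log2 units. Python 3.11.15 with numpy 2.4.6, pandas 2.3.3 and matplotlib 3.10.9 did the rest.

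The members, gene lists and tests were chosen with earlier results of these data known. Named keratins are the 10 with the highest mean level, up to 5 farthest apart in each direction per comparison and those with a bound of at least 2-fold; other keratins are given as members of their group. Up to 3 genes of each other list that differ most on average are named, and Odam was added after their values were seen. The alternatives were normexp correction of the background (offset 50), the deposited values, quantile normalization, the median of measured probes as the centre, the mean over probes, other background filters, thresholds of 1.5-fold and 3-fold, and a requirement of 2 technical errors. The subtraction of Krt5 and Krt14 was chosen after seeing the data.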

Additional observations from a re-analysis of the deposited data

Results flagged for a closer look

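For 13 keratins the genotype difference changed side of 0 between the ages, each beyond 2 technical errors: lower in Mkx-KO at 10 weeks and higher at 4 weeks. Of 15504 genes measured on all arrays 1.43% met the same rule. The difference between ages was not tested, since each age has 1 array per genotype. As the difference at 10 weeks minus that at 4 weeks, the values were -2.87 for Krt76, -2.15 for Krt78, -2.11 for Krt4, -2.01 for Krt13, -1.92 for Krt6a, -1.88 for Krt1 and -1.77 for Krt16. They were -1.66 for Krt42, -1.58 for Krt14, -1.48 for Krt6b, -1.45 for Krt5, -1.44 for Krt32 and -1.31 for Krt10. The second Krt32 probe, above background on all arrays, gave 0.08 at 10 weeks and 0.10 at 4 weeks and so did not change side. Krt6a with Krt6b, and Krt14 with Krt16 and Krt42, may be read by each other's probes. The lists of desmosome and cornified envelope genes lay on the same sides, with medians of -0.63 and -0.90 at 10 weeks and 0.37 and 0.53 at 4 weeks, and the part of the amount of epithelium in each preparation was not tested.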

How the results depend on the processing

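The count of keratins with opposite genotype differences at both ages stayed between 15 and 16 under the 5 alternative scalings and probe rules, and the median difference between ages between -0.93 and -0.66. The share of all genes with such opposite differences lay between 3.92% and 6.97%. Counts of called keratins were small and moved with thresholds. Shares of all genes called were taken at 2-fold in the main setting, and the counts below stand without one. They do not show whether keratins stand out from all genes at those settings. With normexp background correction, 0 keratins were higher at 10 weeks in Mkx-KO (Krt20 lost), 0 lower with age in WT and 1 lower with age in Mkx-KO. With quantile normalization 7 were lower at 10 weeks in place of 4 and 2 lower with age in WT in place of 1. With the deposited values 5 were higher and 1 lower with age in Mkx-KO, in place of 3 each. Counting genes above background on 1 array of the pair gave 3 lower with age in WT. At 1.5-fold, 16 were lower at 10 weeks, 11 higher at 4 weeks, 3 lower with age in WT, and 5 higher and 7 lower with age in Mkx-KO. At 3-fold, 0 were higher and 1 lower at 10 weeks, 0 higher and 1 lower at 4 weeks, 5 higher with age in WT and 0 lower with age in Mkx-KO. Of 744 values of single keratin differences and group medians under alternatives, 625 moved by less than the technical error. Of the 119 others 67 came from the deposited values. None of the 173 belonging to differences or medians of at least 2-fold changed sign. The filter of all 4 arrays kept the same keratins as the main setting, so its 32 values could not move. The mean over probes could not move a keratin with 1 probe. The limma count of keratins was 0 for both terms in the 5 alternative fits. Dim keratins, such as Krt8 in Mkx-KO at 4 weeks and Krt20, are limited by their signal over background. No paired analysis was possible because each group has 1 array, and for the same reason no array could be left out.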
